A study of Homo sapiens with 6 samples.

Results

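ADM, CITED2, ANGPTL4, PDK4, PPARGC1A and MYLIP are 6 regulators of the response to low oxygen, of fasting metabolism and of lipid uptake. They were taken by gene symbol, and all 6 were found among the 771 entries with a symbol in the expression tables of a knockdown experiment. The RNA came from ES2, a human epithelial ovarian cancer cell line kept in RPMI-1640 medium with serum and antibiotics. The control ASO group has 3 libraries from cells that received a control antisense oligonucleotide (ASO), a short strand that pairs with an RNA and can lead to its cleavage. The RUNX1-IT1 ASO group, called the knockdown group here, has 3 libraries from cells that received an ASO against RUNX1-IT1, a long non-coding RNA encoded inside the RUNX1 gene, and are labelled as its knockdown. The sequence and number of the oligonucleotides, the dose and the time of treatment are not given in the sources used here. All libraries come from 1 cell line, and nothing in the labels says whether the replicates came from separate cultures, so the spread that the p-values rest on is that between these libraries and may be technical.

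Cells short of oxygen stabilise the HIF transcription factors, which recruit the coactivators CBP and p300 and switch on genes for blood supply and anaerobic metabolism. Fasting, acting through cyclic AMP, FOXO factors, glucocorticoids and the fatty acid sensors called PPARs, turns cells from burning glucose to burning fat. ADM and ANGPTL4 are HIF targets, CITED2 is a feedback inhibitor of HIF, and ANGPTL4, PDK4 and PPARGC1A are classic fasting genes in liver, muscle and fat. MYLIP controls how much lipoprotein a cell takes up.

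The values are in CPM, read counts scaled to the size of the library, as the authors deposited them. The tables hold 1113 entries, which make up 1.02 to 1.11% of each control library and 0.363 to 0.389% of each knockdown library. With 1 exception, every entry had group means at least 2-fold apart, so the tables appear to hold entries picked for a difference between the very libraries they describe. The direction of any member and its p-value against the control are therefore a description and no independent evidence of a change. Low values lay on even steps, and if each step is the worth of 1 read, the library totals are 17100000 to 21200000 reads; the read numbers given here as implied rest on this, and are less certain in the controls, whose smallest values were at 2 to 5 steps. RUNX1-IT1 has no row in the tables used here, and its knockdown is not checked here. Of 15 ovarian tumour and epithelial markers, PAX8 and ESR1 are listed. They were at 7.16 ± 0.733 and 2.42 ± 0.279 CPM in the controls and 2.98 ± 0.602 and 0.828 ± 0.0254 CPM in the knockdown libraries (SD, n = 3). Of 33 markers of fat, liver, muscle, blood vessel and immune cells, CKM and ITGAM are listed. These were at 0.880 ± 0.257 and 1.72 ± 0.113 CPM in the controls and 0.273 ± 0.136 and 0.127 ± 0.0792 CPM in the knockdown libraries (SD, n = 3). A marker absent from the tables may still be expressed. The part of the listed markers in the results was not tested.

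The start regions of the genes are shown first because HIF binds DNA at a short core, ACGTG or GCGTG, read on either strand. In the RefSeq promoter table (GRCh38.p14), which runs from 250 bases before to 50 bases after each annotated start, all 6 genes were matched, with 9 windows, of which the 3 of CITED2 overlap in part. The core was found in 6 of these 9 windows and in 4 of the 6 genes, and in 48.4% of all 35116 windows in the table, so its presence is common among promoters. The stretches below are read 5′ to 3′ on the strand of the gene, with the hypoxia cores in capitals on whichever strand they match. ADM is shown as a short stretch only, since GENCODE release 29 annotates an exon over its window.
ADM, chr11:10304960-10304989, plus strand: gagcaggagcgcGCGTGgctgaggaaagaa
CITED2, chr6:139374649-139374898, minus strand: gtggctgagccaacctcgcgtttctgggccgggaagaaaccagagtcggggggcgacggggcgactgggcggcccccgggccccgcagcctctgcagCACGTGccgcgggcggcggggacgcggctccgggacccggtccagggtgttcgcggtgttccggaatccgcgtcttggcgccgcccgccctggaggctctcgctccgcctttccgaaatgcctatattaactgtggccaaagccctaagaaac
ANGPTL4, chr19:8363905-8364150, plus strand: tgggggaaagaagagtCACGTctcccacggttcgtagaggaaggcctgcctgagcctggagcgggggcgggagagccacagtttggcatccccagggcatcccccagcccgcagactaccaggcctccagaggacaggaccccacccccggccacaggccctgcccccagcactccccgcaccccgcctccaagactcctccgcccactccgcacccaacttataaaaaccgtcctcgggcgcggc
PPARGC1A, chr4:24472906-24473155, minus strand: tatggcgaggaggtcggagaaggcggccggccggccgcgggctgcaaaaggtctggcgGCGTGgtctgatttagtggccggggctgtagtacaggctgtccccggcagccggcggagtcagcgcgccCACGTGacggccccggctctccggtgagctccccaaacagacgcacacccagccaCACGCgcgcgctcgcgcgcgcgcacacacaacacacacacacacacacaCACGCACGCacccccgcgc

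The core of ADM begins 101 bases before its RefSeq start and that of ANGPTL4 begins 234 bases before its RefSeq start. GENCODE release 29 begins both genes farther upstream, at 10304680 for ADM and 8363289 for ANGPTL4. By those spans both cores lie within the annotated gene. For CITED2, the stretch shown is that of its most upstream start. There and in the upstream start of PPARGC1A, cores on both strands overlap in the palindrome CACGTG. This palindrome is also an E-box and was found in 7.26% of all windows. The other windows of CITED2 also held cores but no E-box, and they are not shown. The upstream PPARGC1A window held 7 cores, several of them inside a run of alternating C with A or G, and the second PPARGC1A start held none. The upstream window lies outside the span that GENCODE release 29 gives the gene (23755041 to 23904089), while the second start lies within it. PPARGC1A thus counts among the genes with a core by the upstream window alone. A cyclic AMP half-site, TGACG, was found in the PDK4 window and in the upstream PPARGC1A window, against 24.6% of all windows. The full cyclic AMP element TGACGTCA (1.85% of all windows), the AP-1 motif TGANTCA (7.71%), the FOXO motif GTAAACA (3.42%) and the RUNX motif TGTGGT or TGCGGT (19.6%) had no match in the 9 windows, and neither had the direct repeats of the PPAR (0.0228%) and LXR (0.0199%) receptors. All were searched on both strands. The TATA letters TATAAA lay 27 bases before the start of ADM and 29 bases before that of ANGPTL4, and were found in 11.5% of all windows. A GC box, GGGCGG, was found in every window of the 6 genes but the second one of PPARGC1A, and in 45.0% of all windows. A match is a run of letters and no measured binding site, and the windows cover only these annotated starts.

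**Figure D1:**
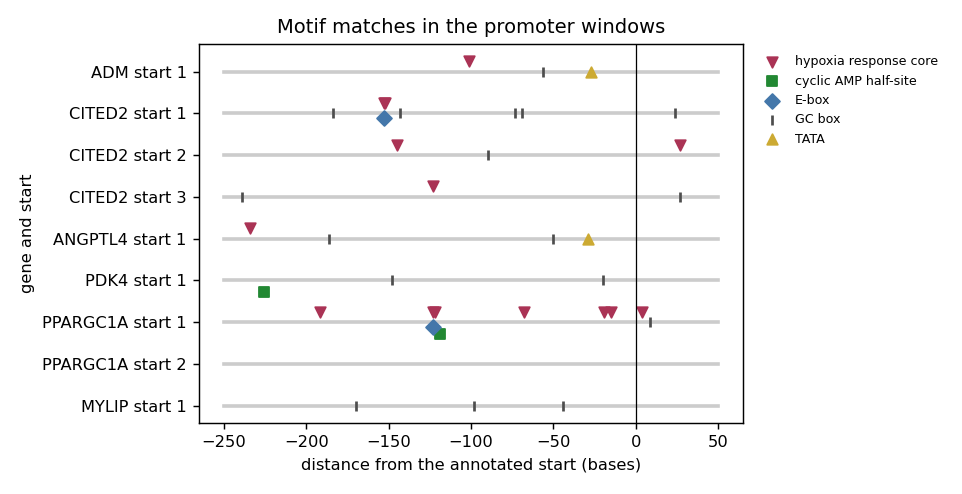
Motif matches on either strand in the 9 promoter windows of the 6 genes, by distance in bases from the annotated start at 0; symbols mark the first base of each match and are set slightly apart in height where they coincide. The hypoxia core appears in ADM, CITED2, ANGPTL4 and the upstream start of PPARGC1A and is missing from the windows of PDK4 and MYLIP.

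All 6 genes were lower in CPM in every knockdown library than in any control ASO library. Relative to the total of the listed entries, CITED2, ANGPTL4 and MYLIP were not lower. On that scale the changes of PDK4 (-0.13 ± 0.15) and PPARGC1A (-0.1 ± 0.13) were smaller than their SE, and only ADM was called lower by limma. In RNA from whole cultures, fewer cells that express a gene and less RNA per cell cannot be told apart. ADM stood 4.35-fold lower by the group means, PDK4 3.26-fold, PPARGC1A 3.03-fold, ANGPTL4 2.46-fold, CITED2 2.23-fold and MYLIP 2.15-fold. CITED2 and MYLIP thus lay close to the 2-fold difference that nearly all listed entries pass. All 6 were called lower by limma at an adjusted p under 0.05, and so were 97.5% of the 489 named genes tested, those averaging 1 CPM or more, so the count says nothing particular about these genes. The groups likewise did not overlap, with the knockdown libraries lower, for 97.1% of the tested genes. The median change of the 6 was -1.18 on the log2(CPM + 1) scale, against -1.11 over all tested genes. This scale, with a pseudocount of 1 CPM, understates the change of low genes.

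**Figure D2:**
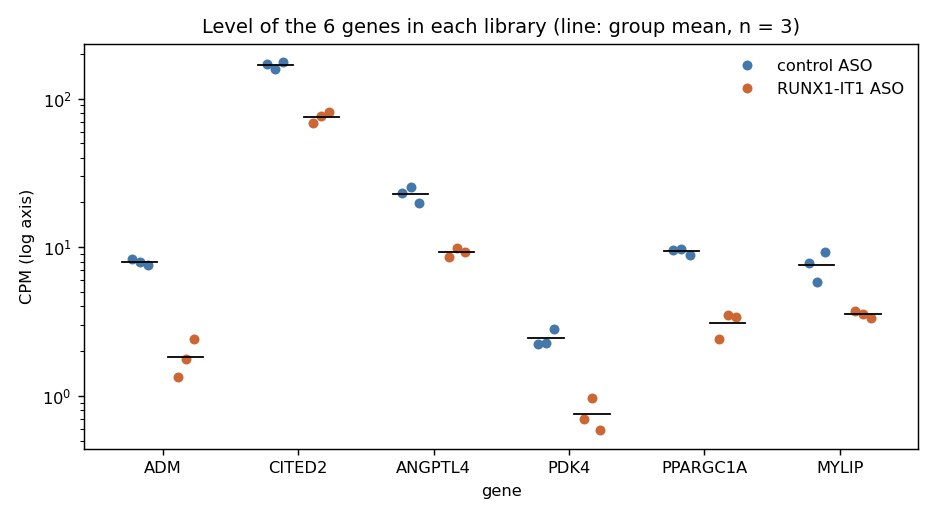
CPM of each gene on a log axis in the 3 control ASO libraries (blue) and the 3 knockdown libraries (orange), with lines at the group means. No orange point reaches the blue points of its gene, and the gap is smallest for MYLIP, whose lowest control library (5.85 CPM) is 1.56-fold above its highest knockdown library (3.74 CPM).

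Among the hypoxia genes, ADM encodes adrenomedullin, a secreted peptide that widens blood vessels and acts through the receptor CALCRL with RAMP proteins. It lies on chromosome 11 from 10304680 to 10307397 (GENCODE release 29 on GRCh38, plus strand). ADM was measured at 8.37, 7.99 and 7.63 CPM in the controls, in the order of the replicate numbers. It was at 1.34, 1.77 and 2.40 CPM in the knockdown libraries. The control libraries had a coefficient of variation of 4.6%, below the 8.01% that counting alone would give. The knockdown libraries spread over 1.34 to 2.40 CPM, with a coefficient of variation of 29.1%. There the implied reads (25, 33 and 41) would give 17.4% by counting alone. With 3 libraries a group, the difference in spread is uncertain. ADM fell by 1.68 ± 0.14 on the log2(CPM + 1) scale (SE, limma, adjusted p = 1.16e-07). On this scale its change ranked 70 from the lowest among the 489 tested genes, and by fold it ranked 125.

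CITED2 encodes a nuclear protein that binds CBP and p300 at the surface HIF uses and so holds HIF activity back. Its gene lies on chromosome 6 from 139371807 to 139374620 on the minus strand. CITED2 had the highest level of the 6, also per length, at 170.0, 158 and 175 CPM in the controls. It was at 68.1, 76.1 and 81.5 CPM in the knockdown libraries. Both groups were tight, with 1273 to 3715 implied reads per library, and the replicates still varied more (5.39 and 9.0%) than counting alone would give (1.75 and 2.71%). CITED2 fell by 1.15 ± 0.08 (SE, limma, adjusted p = 3.11e-08).

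ANGPTL4, a secreted inhibitor of lipoprotein lipase, belongs to both the hypoxia and the fasting response and lies on chromosome 19 from 8363289 to 8374373 on the plus strand. It stood at 23.2, 25.3 and 19.9 CPM in the controls and at 8.61, 9.89 and 9.26 CPM in the knockdown libraries. The knockdown libraries agreed within 6.93% (coefficient of variation, where counting alone would give 7.72%), and control ASO replicate 3 was the lowest of its group. ANGPTL4 fell by 1.21 ± 0.11 (SE, limma, adjusted p = 2.13e-07).

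PDK4 encodes a kinase that shuts off the pyruvate dehydrogenase complex and so keeps pyruvate from being oxidised. It lies on chromosome 7 from 95583499 to 95596491 on the minus strand. PDK4 was the lowest of the 6 genes, also per length, at 2.24, 2.26 and 2.83 CPM in the controls and 0.695, 0.968 and 0.586 CPM in the knockdown libraries. These values rest on 39 to 60 implied reads per control ASO library and on 10 to 18 per knockdown library. The exact 95% Poisson interval of the lowest library ran from 0.281 to 1.08 CPM, and that of the lowest control library from 1.64 to 3.00 CPM; these intervals cover counting error only. PDK4 fell by 0.98 ± 0.14 (SE, limma, adjusted p = 1.29e-05), and with a pseudocount of 0.1 CPM by 1.60.

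PPARGC1A encodes PGC-1alpha, a coactivator that drives mitochondrial biogenesis and, in fasted liver, glucose output. GENCODE places the gene on chromosome 4 from 23755041 to 23904089 on the minus strand. It was at 9.57, 9.73 and 8.91 CPM in the controls and at 2.41, 3.50 and 3.40 CPM in the knockdown libraries. Knockdown replicate 1 was the lowest, as it was for ADM and CITED2 and for ANGPTL4, and it also had the lowest total over the listed entries (3628 CPM, against 3812 and 3894 CPM). PPARGC1A fell by 1.35 ± 0.13 (SE, limma, adjusted p = 3.5e-07).

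MYLIP, also called IDOL, encodes a ubiquitin ligase induced by LXR that sends the low-density lipoprotein receptor for degradation. It lies on chromosome 6 from 16129125 to 16148248 on the plus strand. MYLIP was at 7.82, 5.85 and 9.24 CPM in the controls and at 3.74, 3.55 and 3.34 CPM in the knockdown libraries. The larger spread lay in the control group, with a coefficient of variation of 22.3% where counting alone would give 8.13%. The knockdown libraries varied by 5.70%, below the 12.5% that counting alone would give. With 3 libraries a group, the difference in spread is uncertain. MYLIP fell by 0.91 ± 0.14 (SE, limma, adjusted p = 3.99e-05), the smallest change of the 6 on this scale and by fold.

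Per kilobase of annotated exon (GENCODE release 29, all isoforms joined), the levels in the controls ran from 66.1 ± 3.56 CPM per kb for CITED2 through 9.19 ± 1.10 for ANGPTL4, 2.94 ± 0.135 for ADM, 2.52 ± 0.561 for MYLIP and 0.865 ± 0.0401 for PPARGC1A to 0.540 ± 0.0737 for PDK4 (SD, n = 3). ADM and MYLIP overlapped in this order, and the other neighbours did not. In the knockdown group the levels per kb were 29.7 ± 2.67 for CITED2 and 3.73 ± 0.258 for ANGPTL4. MYLIP, at 1.17 ± 0.0666 CPM per kb, then stood above ADM, at 0.676 ± 0.197, without overlap. PPARGC1A and PDK4 were at 0.285 ± 0.0554 and 0.166 ± 0.0435 CPM per kb. The joined exon length of PPARGC1A, 10.9 kb, takes in many isoforms and lowers its value. Genes on the opposite strand overlap CITED2, ANGPTL4 and PPARGC1A, and since the strand setting of the counting is not given in the sources used here, reads of the 2 strands cannot be told apart there.

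Whether the 6 genes fell by the same amount was asked of their ratios within each library, which a factor scaling a whole library cannot move. Of the 15 pairs, 8 had ratios that did not overlap between the groups, and over all 116403 pairs of tested genes above 0 in every library 47.6% did not, so the share is near the background. With 3 libraries against 3 the two-sided exact permutation test cannot go below p = 0.1, and adjusted over the 15 pairs the smallest value was 0.188. No pair can therefore pass a threshold, and the ratios are given by their size.

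ADM was lower relative to 4 of the other 5 genes in every knockdown library than in any control ASO library. These 4 ratios share the same ADM values and are not separate observations, and 47.6% of all pairs of tested genes did not overlap either. Its log2 ratio to CITED2 was -4.34, -4.30 and -4.52 in the controls and -5.67, -5.42 and -5.09 under knockdown. The mean ratio thus went from 0.0478 to 0.0238 (exact permutation p = 0.1, adjusted p = 0.188 over 15 pairs), 2.01-fold lower. The log2 ratio of ADM to MYLIP was 0.09 ± 0.36 in the controls and -0.99 ± 0.51 in the knockdown group (SD, n = 3). The ratios of ADM to ANGPTL4 and to PPARGC1A were lower by 0.87 and 0.54 on the log2 scale (-0.87 and -0.54), again without overlap. The ratio of ADM to PDK4 moved by -0.43 with overlapping groups, since knockdown replicate 3 (2.04) lay above all controls (1.43 to 1.90) and the other two (0.94 and 0.87) below them; it moved by -0.81 without knockdown replicate 3, by -0.26 without knockdown replicate 1 and by -0.23 without knockdown replicate 2. On CPM + 1 the ratios of ADM to CITED2, ANGPTL4, PPARGC1A and MYLIP moved by -0.53, -0.47, -0.33 and -0.77, and that to PDK4 by -0.70.

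**Figure D3:**
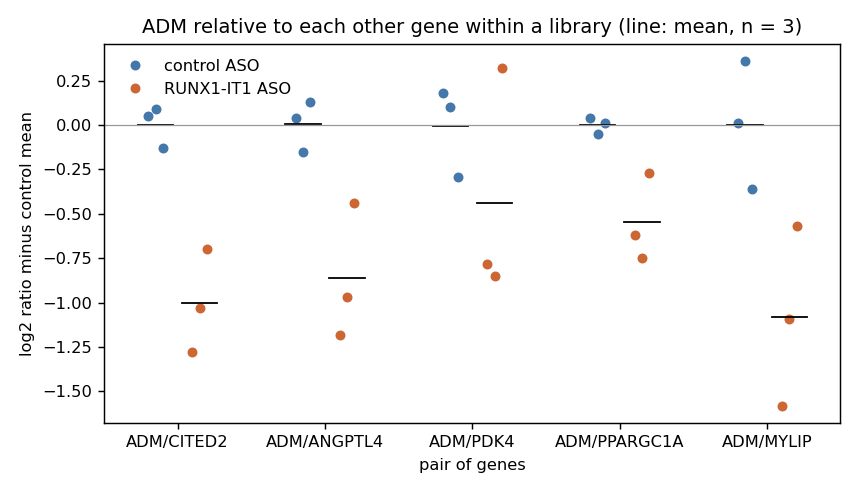
Log2 ratio of the CPM of ADM to that of each other gene within a library, minus the mean of that ratio in the controls; points are libraries (blue control ASO, orange RUNX1-IT1 ASO, the knockdown) and lines are means. The orange points lie below the blue ones for CITED2, ANGPTL4, PPARGC1A and MYLIP, and 1 orange point lies above them for PDK4.

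Among CITED2, ANGPTL4 and MYLIP the ratios overlapped between the groups. The ratio of CITED2 to ANGPTL4 was 7.37 in the controls and 8.12 in the knockdown group, a difference of 0.14 on the log2 scale, with overlapping libraries, and one of 0.02 without control ASO replicate 2, 0.27 without control ASO replicate 3 and 0.08 without knockdown replicate 3. That of CITED2 to MYLIP differed by -0.07, between 4.24 to 4.75 in the controls and 4.18 to 4.61 in the knockdown libraries on the log2 scale, and its sign turned without control ASO replicate 2 (0.06) or knockdown replicate 1 (0.04). That of ANGPTL4 to MYLIP differed by -0.21, and by 0.05 without control ASO replicate 2. PDK4 and PPARGC1A, both fasting genes, also overlapped in their ratio, which went from 0.258 to 0.240, a difference of -0.11 that turned without control ASO replicate 3 (0.04) or knockdown replicate 3 (0.13). These ratios do not show that the genes fell alike, since with 3 libraries a group their SD reaches 0.50 on the log2 scale (ANGPTL4 to MYLIP in the controls).

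The ratio of CITED2 to PPARGC1A was higher by 0.46 on the log2 scale in the knockdown group, and that of ANGPTL4 to PPARGC1A by 0.32 (0.20 without knockdown replicate 1), both without overlap. On CPM + 1 these differences were 0.21 and 0.14, with overlapping groups (exact permutation p = 0.2 and 0.3). That of CITED2 to PDK4 was higher by 0.57, from a mean ratio of 68.9 to 102.0, also without overlap, and by 0.35 without knockdown replicate 3, but on CPM + 1 this ratio moved by -0.17, since PDK4 lies below 1 CPM in the knockdown libraries. The ratio of PDK4 to MYLIP moved by -0.64 without overlap, and on CPM + 1 by -0.07 with overlapping groups (exact permutation p = 0.5). The ratios of ANGPTL4 to PDK4 and of PPARGC1A to MYLIP moved by 0.43 and -0.54 with overlapping groups, and on CPM + 1 the first of these moved by -0.23. That of ANGPTL4 to PDK4 was 0.23 without control ASO replicate 3 and 0.27 without knockdown replicate 3, and that of PPARGC1A to MYLIP was -0.33 without control ASO replicate 2 and -0.32 without knockdown replicate 1.

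Each library was then scaled to the same total over its listed entries, so that a value tells how a gene moved relative to the listed total, which fell. Since nearly every listed gene fell, this scaling centres them by construction, and the median change over all tested genes went from -1.11 to -0.06. ADM was still called lower, at -0.53 ± 0.15 (SE, limma, adjusted p = 0.0206), and 24.1% of tested genes were called lower on this scale. CITED2 was called higher, at 0.34 ± 0.06 (limma, adjusted p = 0.000792), a call that 8.79% of tested genes had, and that here means that CITED2 fell less than the listed total did. MYLIP stood at 0.35 ± 0.14 (adjusted p = 0.0697), ANGPTL4 at 0.19 ± 0.11 (0.224), PDK4 at -0.13 ± 0.15 (0.53) and PPARGC1A at -0.10 ± 0.13 (0.575), none of them called by limma. The share of the listed total taken by CITED2 was 1.55 to 1.58% in the controls and 1.88 to 2.09% in the knockdown libraries. The share taken by ADM was 0.0690 to 0.0785% and 0.0369 to 0.0617%. The direction of CITED2, ANGPTL4 and MYLIP thus depends on the scaling. PDK4 and PPARGC1A lost their calls, while ADM was called lower on both scales.

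**Figure D4:**
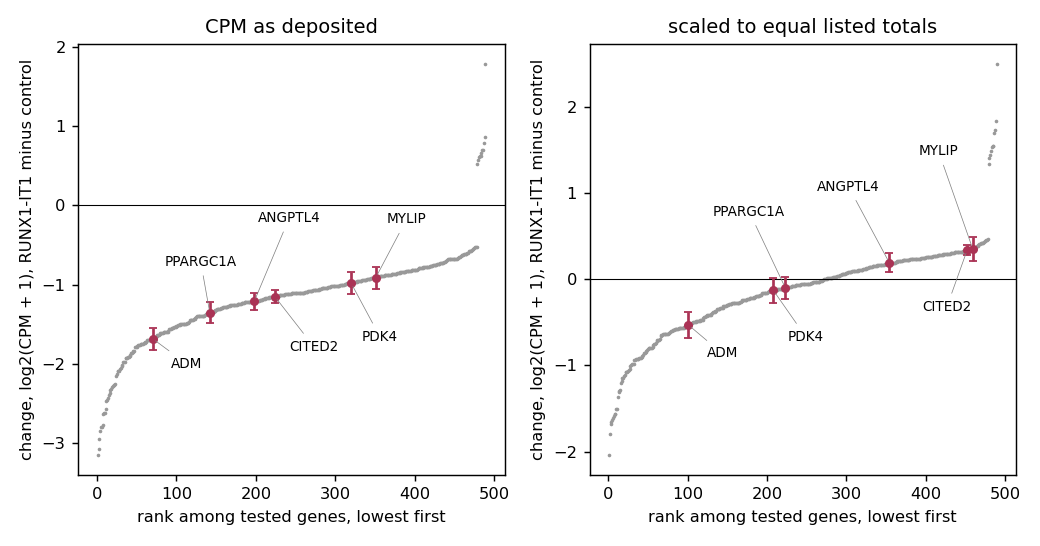
Change of all 489 tested genes (grey) on the log2(CPM + 1) scale, knockdown minus control, ordered from the lowest, with the 6 genes in red and their standard errors; the left panel has CPM as deposited and the right panel CPM scaled to equal listed totals. On the left, ADM (-1.68) has the largest fall of the 6 and MYLIP (-0.91) the smallest, and on the right they lie between -0.53 and 0.35.

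The pathways around the 6 genes were followed through 6 lists with 290 genes in all, of which 17 are listed, 11 of them besides the 6. Of 78 hypoxia genes and HIF targets, 5 are listed, and the 4 that could be tested all fell (median -1.18, against -1.11 and 97.5% called lower over all tested genes). Those 4 are ADM, CITED2 and ANGPTL4 themselves and HMOX1, so this median mostly restates values given above. HMOX1, the heme-degrading enzyme, was at 65.0 ± 4.22 and 31.0 ± 2.15 CPM (SD, n = 3) and fell by 1.04 ± 0.09. EFNA1, an ephrin ligand, had a mean too low for the test, at 1.11 ± 0.227 and 0.314 ± 0.0872 CPM. On the scale of equal listed totals, ADM was called lower and CITED2 and HMOX1 (0.42) higher, and the median of the 4 was 0.27.

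Of 55 genes of fasting, PPAR signalling and fatty acid oxidation, the listed ones are PDK4, ANGPTL4 and PPARGC1A, which all fell (median -1.21) and of which none was called on the scale of equal listed totals. Of 37 genes of pyruvate fate and glycolysis, PDK4 alone is listed. Of 42 genes of cyclic AMP, FOXO and glucocorticoid signalling, 5 are listed, and the 4 that could be tested all fell (median -1.76, against -1.11 and 97.5% called lower over all tested genes). NR4A3 and NR4A2, nuclear receptors induced by cyclic AMP, went from 9.69 ± 0.450 to 1.24 ± 0.294 CPM and from 10.7 ± 0.902 to 2.50 ± 0.627 CPM. NR4A3 was thus 7.80-fold lower and NR4A2 4.29-fold, and they stood at -1.18 and -0.53 after scaling to equal listed totals, both called lower. GADD45A, a growth arrest gene and FOXO target, went from 420.0 ± 27.2 to 123 ± 12 CPM and was also called lower on that scale (-0.27). TXNIP, a thioredoxin-binding protein that limits glucose uptake, fell 2.31-fold and was called higher on that scale (0.29). Thus 3 of the 4 were called lower there and 1 higher, against 24.1% and 8.79% of all tested genes. By fold GADD45A was 3.41-fold lower. These 4 genes had control means of 9.69 to 420 CPM, and both scales use log2(CPM + 1), which understates the change of low genes. The part of expression level in the gap between the medians was not tested. The list was also chosen with earlier results of these data known. KLF15, a fasting-induced zinc finger factor, was at 1.31 ± 0.255 and 0.473 ± 0.158 CPM, too low for the test.

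Of 61 genes of lipoprotein and cholesterol regulation, 4 are listed and 2 tested. Besides MYLIP, the tested gene was ABCA1, a cholesterol exporter induced by LXR as MYLIP is, which went from 49.4 ± 5.81 to 18.1 ± 0.921 CPM and fell by 1.40 ± 0.10 (SE, limma, adjusted p = 2.81e-08). After scaling to equal listed totals neither was called, with ABCA1 at 0.05. MTTP, which loads lipid onto lipoproteins, was at 0.957 ± 0.127 and 0.257 ± 0.0580 CPM, too low for the test. APOE, a lipoprotein component that binds lipoprotein receptors, was likewise too low, at 0.989 ± 0.397 and 0.185 ± 0.116 CPM. Of 56 paralogues and direct partners of the 6 genes, among them the adrenomedullin receptor subunits, the PDK kinases and phosphatases and the lipoprotein receptors, ANGPTL1 alone is listed, at 0.781 ± 0.386 and 0.11 ± 0.107 CPM. Genes absent from the tables are not analysed here, and their absence does not show that they were unchanged.

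**Figure D5:**
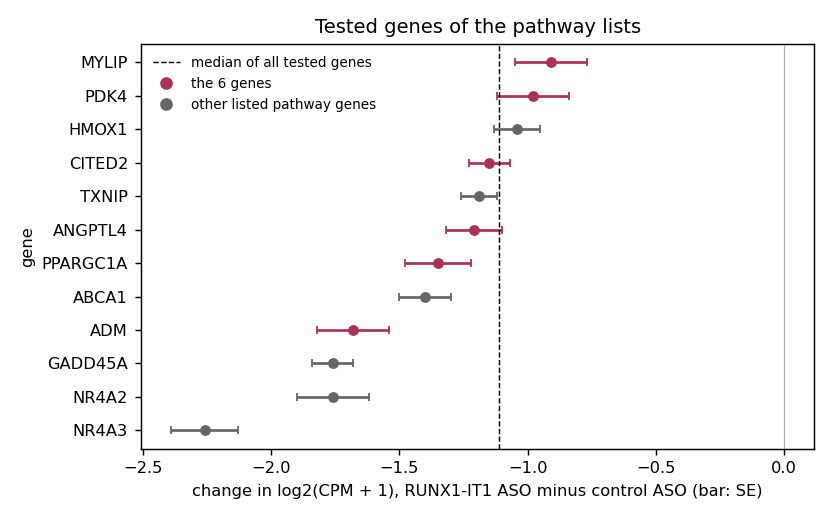
Change in log2(CPM + 1), knockdown minus control, with its standard error, for the 12 tested genes of the pathway lists; the 6 genes are red, other listed genes grey, and the dashed line is the median of all 489 tested genes. NR4A3 (-2.26) lies farthest to the left and MYLIP (-0.91) nearest to 0.

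The genes with the nearest profiles were sought among tested genes that averaged 5 CPM or more, by the Euclidean distance between centred log2(CPM + 1) values over the 6 libraries. Nearest to ADM were TEF (distance 0.27), CSRNP1 (0.28) and an entry named MIR6883 (0.30), where the median distance was 0.75. Nearest to CITED2 were H2AFJ (0.09), TAGLN3 (0.11) and PPP1R15A (0.11). PPP1R15A, a phosphatase subunit induced by stress, was at 416 ± 14.1 and 179 ± 14.0 CPM, and TAGLN3 was at 146 ± 8.42 and 63.4 ± 7.81 CPM. Nearest to ANGPTL4 were TXNIP (0.21), CXCL2 (0.23) and LMCD1 (0.28), and nearest to PPARGC1A were SAT1 (0.19), NFKBIE (0.21) and NFKBIA (0.21). NFKBIA and NFKBIE encode inhibitors of NF-kB, and NFKBIA went from 71.3 ± 3.85 to 26.5 ± 3.17 CPM. For PDK4 the nearest were GSTO2 (0.21), HMOX1 (0.24) and PLK2 (0.24), and for MYLIP they were LPP-AS2 (0.31), NFKBIZ (0.34) and S100A2 (0.38). The profile of CITED2 thus had closer matches than that of MYLIP, but its median distance was also smaller (0.42 against 0.68). Counting alone would give a coefficient of variation of 1.75 and 2.71% for CITED2 and of 8.13 and 12.5% for MYLIP (controls and knockdown libraries). The part of read depth in this difference was not tested. These distances include the difference between the groups, which nearly all listed genes share. They rest on log2(CPM + 1), which understates the change of low genes, so a match on this scale is not a match by fold. The genes nearest to PDK4 fell 2.26-fold (GSTO2), 2.1-fold (HMOX1) and 2.09-fold (PLK2), against 3.26-fold for PDK4. Those nearest to ADM fell between 2.96-fold (MIR6883) and 3.48-fold (TEF), against 4.35-fold for ADM.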

How the data were processed

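RNA was sequenced from 6 ES2 libraries, 3 per group, made as mRNA-focused libraries from total RNA per the labels' protocols. The submitters' processing notes name fastp 0.22.0, FastQC 0.11.9 and GRCh38; aligner, counter, annotation, strand setting and gene filter are not given there. The CPM values deposited by the authors were used as they stand; the unit was read from the values, whose low entries (up to 320 steps) lay within 0.1 step of whole multiples of 1 read's worth. The smallest values above 0 were at 2 to 5 steps in the control ASO libraries, so reads were not taken as recovered, implied reads there are less certain, and no count test was run.

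Values were taken as log2(CPM + 1), and 489 of 771 named genes, those whose mean reached 1 CPM, entered a limma 3.58.1 fit (R 4.3.3) with group as the only term and a trend of variance on mean, with Benjamini-Hochberg adjustment over all of them. The 342 entries without a symbol entered only the listed totals and 1 alternative. Ratios were tested by exact permutation over libraries. The fit was tested on simulated data. Named genes were the 6 members, up to 8 listed genes per pathway list and the 3 nearest profiles per member. The members and lists were chosen with earlier results of these data known, so their choice is not independent of them.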

Additional observations from a re-analysis of the deposited data

How the results depend on the processing

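Of the 82 alternative fits of the 6 genes, 77 kept the direction and the call; all 5 exceptions came from scaling to equal listed totals, where CITED2 (0.34), ANGPTL4 (0.19) and MYLIP (0.35) turned positive and PDK4 (-0.13) and PPARGC1A (-0.10) lost their calls. That scaling centres genes that nearly all fell; it left 1 of the 6 genes called lower and moved the calls over all genes to 118 lower and 43 higher, from 477 and 10, and the genes called lower to 1 on the hypoxia list and to 0 on the fasting, lipoprotein and glycolysis lists. With no filter 750 genes were lower and 19 higher, with a mean of at least 5 CPM 165 and 0 (ADM and PDK4 did not pass that filter), and with the entries without a symbol 20 were higher, as more or fewer entries were tested. Ratios of CPM + 1 turned CITED2/PDK4 (-0.17), ANGPTL4/PDK4 (-0.23) and PDK4/PPARGC1A (0.38), by the weight of the pseudocount on PDK4. Leaving out 1 library turned CITED2/MYLIP (-0.19 to 0.06), ANGPTL4/MYLIP (-0.46 to 0.05) and PDK4/PPARGC1A (-0.24 to 0.13); the cause was not tested. Same-numbered libraries did not deviate together (r = -0.24, -0.10 and -0.02 over 489 genes), and differently numbered ones gave r from -0.13 to 0.18. With so few libraries per group, these values cannot tell whether same-numbered libraries were made together. With the replicate block 478 genes were lower and 10 higher, and all 6 genes stayed called, CITED2 at -1.15. TMM scaling, listed among the alternatives, was not run, since it needs counts. Depth limits PDK4 most, with 10 to 18 implied reads per knockdown library.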
